A study of Mus musculus with 6 samples.

Results

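The genes described here encode the 8 subunits of the cytosolic chaperonin CCT, also called TRiC: Tcp1, Cct2, Cct3, Cct4, Cct5, Cct6a, Cct7 and Cct8. They were found by gene symbol in each of the 6 count tables, which hold 46072 genes, and each of the 8 symbols matched 1 row. RNA came from mouse embryos at the 4-cell stage. In the Son siRNA group (3 libraries) siRNA against Son, a nuclear speckle protein of pre-mRNA splicing, had been microinjected into zygotes, and the control group (3 libraries) is labelled only as control. The labels give no strain, no embryo number per library and no control injection, and they do not say whether libraries came from separate litters. The p-values therefore measure the spread between these libraries, which may be technical.

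CCT is built from a pair of stacked rings, each holding 1 copy of all 8 subunits around a chamber in which a polypeptide folds, closed by a built-in lid when ATP is hydrolysed. Actin and tubulin are its best-known clients, together with proteins of the WD40 repeat class such as the anaphase activator Cdc20. Prefoldin and the phosducin-like proteins bring clients to the chamber. An embryo at this stage divides repeatedly and needs folded tubulin and actin for its spindles and its cell cortex.

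Total estimated counts were 104634855 to 118865650 per library. Values are given as CPM, the count of a gene scaled to a common library size after TMM scaling, which corrects for differences in RNA makeup between libraries. Son had 249, 322 and 332 CPM in controls 1 to 3 and 41.03, 28.0 and 25.1 CPM in Son siRNA libraries 1 to 3, with no overlap. Its log2 fold change was -3.26 (SE 0.272, adjusted p = 0.00991 by edgeR's quasi-likelihood test). The call was lost without siRNA library 1, 2 or 3 (edgeR adjusted p = 0.0648, 0.0709 and 0.136). It was also lost with the replicate number as a block (edgeR adjusted p = 0.0617). All 8 embryo and oocyte markers reached 1 CPM in at least 1 library, Zp3, Pou5f1 and Nlrp5 among them. Pou5f1 was lower after siRNA without overlap (log2 -1.81, edgeR adjusted p = 0.177), at 0.8999 and 0.755 CPM in siRNA libraries 1 and 3. Zp3 and Tle6 were higher without overlap (log2 0.661 and 0.901, edgeR adjusted p = 0.297 and 0.232). The remaining markers of this list overlapped, and edgeR called 0 of the 8. Whether the groups differed in embryo state was not tested. Of 9 cumulus cell markers 1 reached 1 CPM, Amhr2, and Foxl2, Fshr and Inhba were at 0 in all 6 libraries. The cumulus list summed to 6.53 to 17.9 CPM in controls and 19.8 to 27.7 CPM after siRNA, and its part in the results was not tested. Of 7 sperm markers and 5 blood markers 1 each reached 1 CPM, and Odf1, Smcp, Tnp2, Hbb-bs, Hbb-bt and Ptprc were at 0 throughout.

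The 8 genes lie on 8 chromosomes, with coordinates here on GRCm38. Tcp1 is on chromosome 17 from 12915701 to 12925067, Cct2 on chromosome 10 from 117051001 to 117063814, Cct3 on chromosome 3 from 88297116 to 88321767 and Cct4 on chromosome 11 from 22990519 to 23003780. Cct5 is on chromosome 15 from 31590800 to 31601804, Cct6a on chromosome 5 from 129786998 to 129846371, Cct7 on chromosome 6 from 85451514 to 85468475 and Cct8 on chromosome 16 from 87483326 to 87495873. Each has 11 to 16 exons in its longest protein-coding transcript, 11 in Cct5 and 16 in Cct2, with the longest processed transcript taken for Cct6a. GENCODE vM21 types 7 of them as protein coding and gives Cct6a no protein-coding transcript, only processed transcripts and retained introns over a span of 59374 bases, so its length is less certain than that of the others.

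RefSeq's promoter table for GRCm38.p6 held 7 of the 8 genes, with 300 bases around each start site (250 before, 50 after); Cct4 was not matched. The GC box letters GGGCGG, searched on both strands, occurred in promoters of all 7 matched genes, and in 35.7% of all 32851 promoters. Counted by promoter, as that share is, 8 of the 9 promoters of these genes held them. Because all matched members share these letters, 30 bases around the match nearest upstream of a start site are shown, 5′ to 3′ on the gene's strand, with the match in capitals. The windows of Tcp1 and Cct6a, like that of Cct2, lie inside the annotated gene.
Tcp1, chr17:12916212-12916241, plus strand: gttgaggcggaGGGCGGgacacgctagccg
Cct2, chr10:117063361-117063390, minus strand, at the start site inside the annotated gene: cgccctcttcgGGGCGGggctggaagggcg
Cct3, chr3:88297030-88297059, plus strand: tcttgcgtagaGGGCGGggctaatactgtc
Cct5, chr15:31602067-31602096, minus strand: cttagagcccGGGCGGcaatcaaagaaaag
Cct6a, chr5:129787295-129787324, plus strand: agccaatcagcGGGCGGcaggagggtcgcc
Cct7, chr6:85451485-85451514, plus strand: gaacctgcggtGGGCGGctcgcggggttgc
Cct8, chr16:87495899-87495928, minus strand: gcaggttgaagGGGCGGggcgaccggaagt

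The letters CCGGAAG, which contain the core read by Ets-family transcription factors, occurred in 3 of the 7 genes and in 8.86% of all promoters. Counted by promoter, 3 of the 9 promoters of these genes held them. For CCAAT and GAANNTTC, given below, 4 and 1 of the 9 did. The matches began 4 bases before the start site in Tcp1, 18 in Cct2 and 37 in Cct8, and are shown because they are the rarer of the motifs that several members hold. The Tcp1 window again lies inside the annotated gene.
Tcp1, chr17:12916314-12916343, plus strand: gcagccccctaCTTCCGGcgttttcagttt
Cct2, chr10:117063852-117063881, minus strand: gagccgctacgCTTCCGGcccagcccgcca
Cct8, chr16:87495888-87495917, minus strand: gggcggggcgaCCGGAAGtagggggacgcg
CCAAT occurred in 4 of the 7 genes (Tcp1, Cct3, Cct6a and Cct7; 37.4% of all promoters) and the heat shock element core GAANNTTC in 1, Cct2 (7.86%). These are matches of letters only.

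The main comparison asked how the CCT subunit mRNAs differed between Son siRNA and control embryos. Levels of 7 subunits were 52.8% to 82.8% of the control mean after siRNA, with Cct5 lowest, while Tcp1 stood at 98.2%. Over the 17788 genes tested by edgeR (adjusted p below 0.05), 0 of the 8 passed, where 0.989% of all genes did, 0.899% lower and 0.0899% higher; among genes with a mean of 50 CPM or more 2.64% passed lower. At an unadjusted p under 0.05 there were 3, Cct5, Cct4 and Cct2, all lower; 8.86% of all genes were lower at that level. DESeq2's Wald test and limma-voom with group-wise variances each called 1 subunit lower, Cct5, against 6.25% and 1.86% of genes called lower by those tools. All 8 fold changes were below 0 with TMM scaling (Tcp1 by only 0.03), with a median of -0.46 in log2, beside 0.02 over all genes tested. In 6 of the 8 every siRNA library was below every control, against 11.6% of all genes, and in 0 above, against 12.1% (23.7% in either direction). CPM are relative to the other RNA of a library, so the amount of subunit mRNA per embryo cannot be read from them. In such bulk samples fewer cells with a given mRNA and less of it in each cell cannot be told apart. Abundant genes as a whole were lower: of the 2764 tested genes with a mean of 50 CPM or more, where all 8 subunits belong (a class chosen after the data were seen), the median was -0.19, 66.4% had a fold change below 0, and 23.2% had siRNA libraries all below controls.

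**Figure D1:**
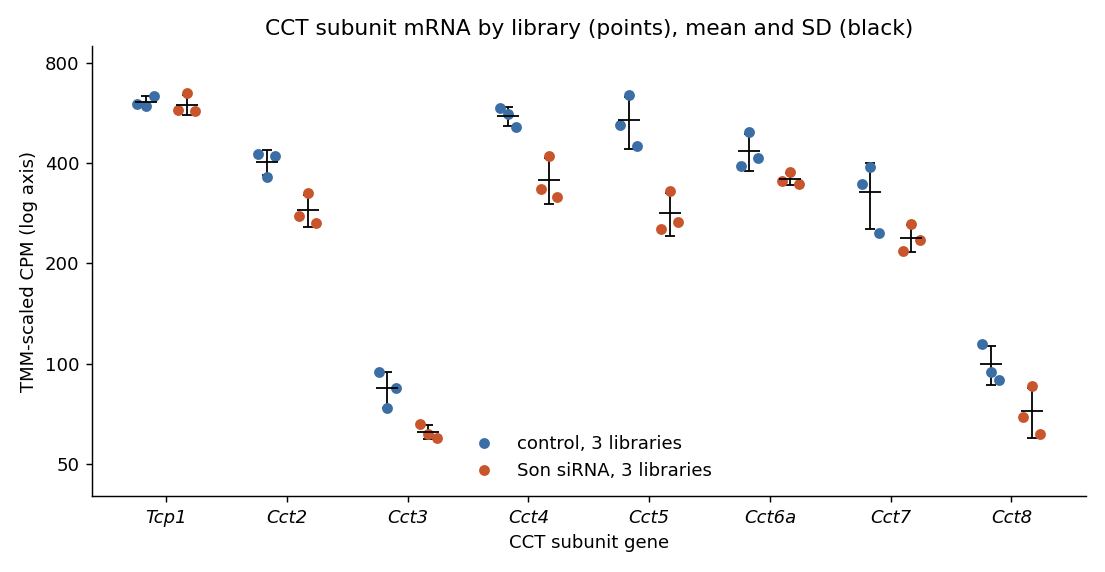
CPM after TMM scaling (log axis) of each CCT subunit gene in 3 control and 3 Son siRNA libraries; points are libraries, black bars the mean and SD. The groups overlap for Tcp1 and Cct7, and the siRNA points lie below the controls for the other 6.

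Cct5, Cct4 and Cct2 had the 3 smallest p-values. These subunits, with Tcp1, belong to the side of the ring that binds ATP most strongly. Cct5, the epsilon subunit, had 521, 639 and 452 CPM in controls and 254, 331 and 266 CPM after siRNA. Every siRNA library was well below the lowest control, with means of 538 ± 94.8 and 284 ± 41.2 CPM (SD, n = 3 each). The log2 fold change of Cct5 was -0.92 (SE 0.216, 95% interval -1.41 to -0.43), with an adjusted p of 0.0903 by edgeR. DESeq2 gave Cct5 an adjusted p of 0.00564 and limma-voom one of 0.043, and over all settings tried the adjusted p ran from 0.00188 to 0.42. DESeq2's call of Cct5 was lost without siRNA library 1 or 3 (adjusted p = 0.113 and 0.106) and kept without any other library.

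Cct4, the delta subunit, which contacts actin and tubulin during folding, had 584, 563 and 512 CPM in controls and 334, 421 and 316 CPM after siRNA. The groups did not overlap, and siRNA library 2 was the highest of its group. The log2 fold change of Cct4 was -0.63 (SE 0.198, edgeR adjusted p = 0.178; 0.0384 to 0.58 over all settings). DESeq2 called it only without control 2 or siRNA library 2 (adjusted p = 0.0457 and 0.0384). Cct2, the beta subunit, had 425, 363 and 420 CPM in controls and 277, 326 and 265 CPM after siRNA, again without overlap. Its log2 fold change was -0.48 (SE 0.192, edgeR adjusted p = 0.292), and the only call was DESeq2's without control 2 (adjusted p = 0.0488; up to 0.706 over all settings).

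Cct7, Cct8 and Cct3 had fold changes close to that of Cct2, with intervals that include 0. Cct7, the eta subunit, had 345, 390 and 247 CPM in controls and 218, 262 and 234.6 CPM after siRNA. Control 3 lay inside the siRNA range, so the groups overlapped (log2 -0.46, 95% interval -0.97 to 0.05, edgeR adjusted p = 0.388). Cct8, the theta subunit, had 115, 94.5 and 89.4 CPM in controls and 69.0, 85.6 and 61.7 CPM after siRNA. The gap between the lowest control and siRNA library 2 was small (log2 -0.47, interval -0.99 to 0.05, edgeR adjusted p = 0.389). Cct3, the gamma subunit, had 94.8, 73.8 and 84.3 CPM in controls and 65.7, 61.6 and 59.9 CPM after siRNA (log2 -0.43, interval -0.92 to 0.05, edgeR adjusted p = 0.393). Its siRNA libraries were all below its controls.

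Cct6a and Tcp1 were nearest to no difference. Cct6a encodes the zeta subunit. It had 391, 496 and 415 CPM in controls and 354, 377 and 347 CPM after siRNA, without overlap but with a small gap. Its log2 fold change was -0.27 (interval -0.70 to 0.16, edgeR adjusted p = 0.568), -0.16 without control 2, its highest library, and 0.00 with total-count scaling. Tcp1, the alpha subunit and the first to be described, had 602, 595 and 638 CPM in controls and 578, 648 and 574 CPM after siRNA. The siRNA values surrounded the control range, with a log2 fold change of -0.03 (interval -0.43 to 0.37, edgeR adjusted p = 0.968). That interval allows changes of either sign.

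**Figure D2:**
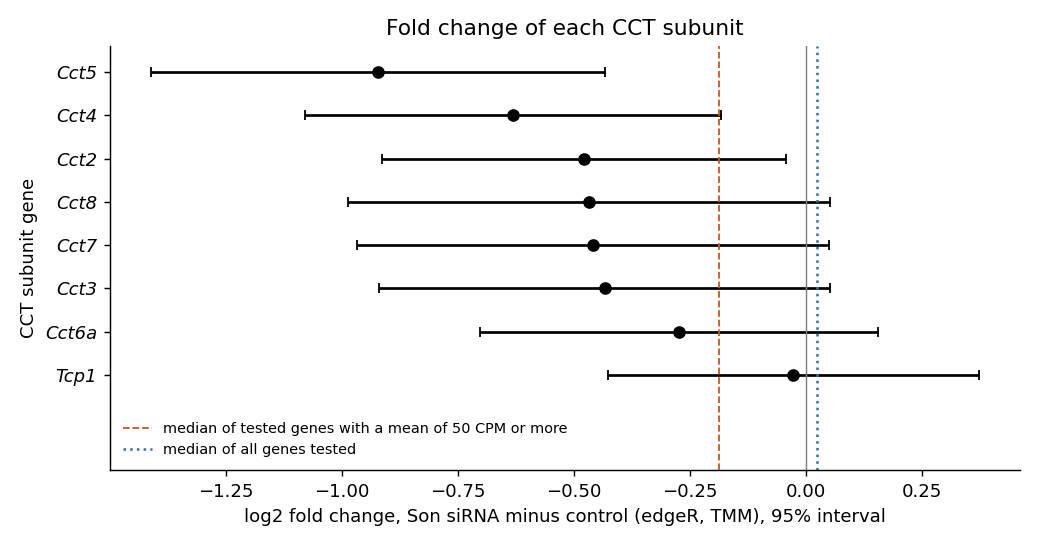
Log2 fold change of each CCT subunit, Son siRNA minus control, with its 95% interval from edgeR; vertical lines mark 0, the median of all genes tested and the median of tested genes with a mean of 50 CPM or more. Cct5 (-0.92), Cct4 (-0.63) and Cct2 (-0.48) have intervals wholly below 0, and Tcp1 (-0.03) is centred near 0.

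A scaling factor shifts all genes of a library alike, so the sign of a small fold change can turn with it. With total-count scaling, where the median log2 fold change of all genes was 0.31, the CCT median was -0.18 and 6 of the 8 fold changes were below 0. On that scale 2 subunits, Cct2 and Cct5, had all siRNA libraries below the controls, against 6.22% of genes. Tcp1 had 516, 625 and 517 CPM by total counts in controls and 670, 663 and 662 CPM after siRNA, so that all siRNA libraries were above the controls (log2 0.27, edgeR adjusted p = 0.507; 18.8% of genes were higher without overlap).

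A ratio between subunits of the same library is free of scaling, and on it Tcp1 and Cct5 parted. This comparison was chosen after the values were seen and is a description. What share of all genes would separate without overlap on such a scale was not tested. Tcp1 and Cct5 each enter the mean that the other is set against, so their differences are not independent. Against the mean log2 CPM of the other 7 subunits, Tcp1 stood at 1.03, 1.03 and 1.31 in controls and at 1.62, 1.57 and 1.65 after siRNA, a difference of 0.49 with no overlap. Cct5 stood at 0.80, 1.15 and 0.74 in controls and at 0.27, 0.46 and 0.39 after siRNA, a difference of -0.52 with no overlap. Cct4 was the third without overlap, at 0.96 ± 0.02 in controls and 0.75 ± 0.10 after siRNA (SD, n = 3). The other 5 overlapped, with differences of -0.03 for Cct2, -0.02 for Cct8, 0.03 for Cct7, 0.04 for Cct3 and 0.22 for Cct6a. Leaving out each library in turn kept the Tcp1 difference between 0.45 and 0.58 and the Cct5 difference between -0.60 and -0.40. The CPM ratio of Tcp1 to Cct5 was 1.15, 0.93 and 1.41 in controls and 2.28, 1.96 and 2.16 after siRNA.

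**Figure D3:**
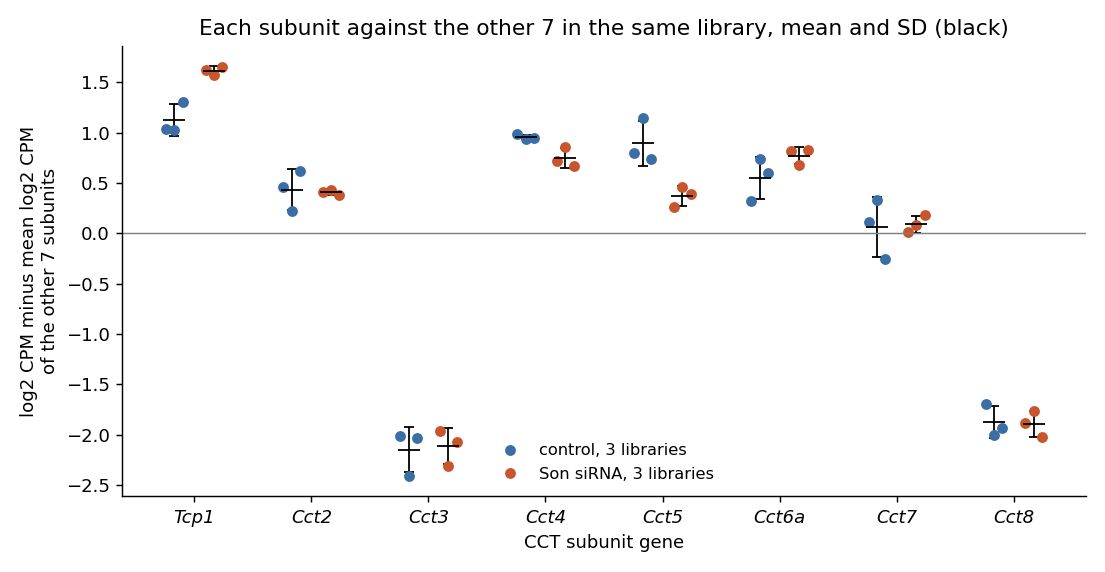
Log2 CPM of each subunit minus the mean log2 CPM of the other 7 subunits in the same library, a measure that library scaling cannot move; points are libraries, black bars the mean and SD. Tcp1 lies higher (1.62 against 1.12 on average) and Cct5 lower (0.37 against 0.90) after siRNA, without overlap.

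The assembled chaperonin holds its subunits in equal number, but the mRNA levels per length did not stand equal. Divided by the kilobases of all annotated exon bases, control levels were highest for Cct5 (194 ± 34.3 CPM per kb) and Cct2 (158 ± 13.5), followed by Cct4 (132 ± 8.78), Tcp1 (122 ± 4.59) and Cct6a (120 ± 15.3; SD, n = 3 each). Cct4, Tcp1 and Cct6a lay within their spread of each other, and so did Cct5 and Cct2. Cct7 (48.3 ± 10.7), Cct8 (32.3 ± 4.39) and Cct3 (13.2 ± 1.64) were lower on this scale, and the ranges of Cct7 and Cct8 overlapped. After siRNA the order began with Tcp1 (119 ± 8.29 CPM per kb) and Cct2 (113 ± 12.6), which overlapped, then Cct5 (103 ± 14.9), Cct6a (99.3 ± 4.24) and Cct4 (85.0 ± 13.4), followed by Cct7 (35.2 ± 3.31), Cct8 (23.3 ± 3.96) and Cct3 (9.80 ± 0.472). The range of Cct5 overlapped those of Tcp1, Cct2, Cct6a and Cct4, and Cct4 overlapped Cct6a. Within each siRNA library, however, Tcp1 stood above Cct2, Cct2 above Cct5 and Cct6a, and these above Cct4. Cct6a was above Cct5 in siRNA library 1 only (97.9 against 91.9). The order depended on the length: with the longest protein-coding transcript Cct5 had rank 2 and Cct2 rank 3 after siRNA.

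Within the summed level per kb, Tcp1 made up 14.9% ± 1.42 in controls and 20.4% ± 0.620 after siRNA (SD, n = 3 each), and Cct5 made up 23.6% ± 2.87 and 17.4% ± 0.881. Neither pair of groups overlapped. The share of Cct4 was also lower without overlap, at 16.1% ± 0.691 and 14.4% ± 0.797, and those of the remaining subunits overlapped. These shares restate the CPM given above. How many of all genes would separate on such a scale was not tested. Using the longest protein-coding transcript as the length raised the share of Tcp1 to 18.4% and 24.7%. The share of Cct7 rose from 5.86% to 9.77% in controls. The mean of Cct8, not Cct3, was then last in both groups, but by little. In controls it was 41.6 ± 5.66 CPM per kb against 42.6 ± 5.29, and Cct3 was lower in controls 1 and 2. After siRNA it was 30.1 ± 5.10 against 31.6 ± 1.52, and Cct3 was lower in siRNA library 2. In controls this length moved Cct2 from rank 2 to rank 4, Tcp1 from rank 4 to rank 2 and the share of Cct3 from 1.62% to 3.14%. Cct3 and Cct8 together stayed the least abundant subunits with either length. The summed level was 825, 862 and 770 CPM per kb in controls and 558, 656 and 549 after siRNA, which is 71.8% of the control mean, without overlap. With total counts the sums overlapped and the mean after siRNA was 87.1% of control.

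**Figure D4:**
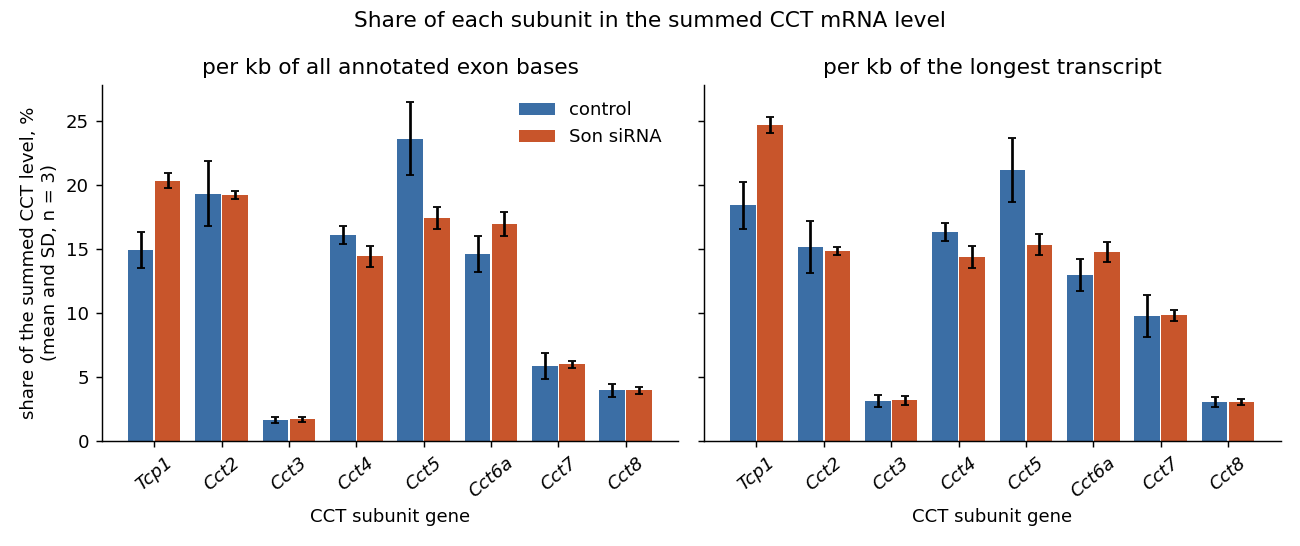
Share of each subunit in the summed CCT mRNA level per kb, in percent, for 2 definitions of length; bars are means of 3 libraries and error bars the SD. In both panels Tcp1 takes a larger share after Son siRNA, and Cct5 and Cct4 a smaller one. Cct3 and Cct8 hold the smallest shares.

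Reads of this protocol carry no strand, so genes that overlap a subunit can share its counts. Cct2, Cct3, Cct4 and Cct5 overlap no other annotated exon and share no stretch of 100 bases with another gene. Tcp1 shares 16.9% of its exon bases, mostly with Acat3 on the other strand (11.4%) and with the mitochondrial ribosomal protein gene Mrpl18 (2.80%). Acat3 had 2.31, 3.75 and 1.45 CPM in controls and 4.47, 4.87 and 4.24 CPM in the siRNA libraries (log2 0.85, edgeR adjusted p = 0.434), far below the level of Tcp1. Mrpl18 had 90.5, 116 and 80.9 CPM in controls and 95.2, 141 and 97.5 CPM after siRNA, and these overlapped.

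Cct6a shares 12.5% of its exon bases with the phosphoserine phosphatase gene Psph, which was at 4.10 to 13.6 CPM over the 6 libraries. Cct7 shares 3.16% with Pradc1 (18.8 to 36.1 CPM). Cct8 shares 6.22% with the deubiquitinase gene Usp16, which is more abundant than Cct8 itself (401 ± 30.4 CPM in controls and 341 ± 18.0 after siRNA, log2 -0.24, edgeR adjusted p = 0.618), and its part in the Cct8 counts was not tested. Acat2, which shares 3.57% of the 100-base stretches of Tcp1, had a log2 fold change of -0.46 (edgeR adjusted p = 0.549). The pseudogene entries Cct3-ps1 and Tcp1-ps1 were at 0 in every library. Of the small nucleolar RNA genes inside Tcp1 and Cct6a, Snora20 was at 0 and Gm26130 at 1 unit in each library, while Snora15 reached at most 6 units and Gm23245 at most 22.

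Other genes of the folding pathway came from 10 lists of cofactors, relatives and clients, and 1 gene in them passed the test over all genes. The lists held 5, 6, 8, 3, 8, 15, 5, 11, 2 and 2 tested genes. Over all of them together, 1 call is near the share of all genes called. The counts below stand beside 0.899% of all genes called lower and 0.0899% called higher, 14.7% with an unadjusted p under 0.05 in either direction, and 48.7% with a fold change below 0. Wrap53, a WD40 protein of telomerase and Cajal body traffic that CCT folds, had 44.1, 40.5 and 21.1 CPM in controls and 8.01, 8.56 and 7.18 CPM after siRNA. It fell without overlap (log2 -2.15, SE 0.345, edgeR adjusted p = 0.0339), and shares no exon bases with another gene. The call of Wrap53 was lost with total-count scaling (log2 -1.89, edgeR adjusted p = 0.0924), without control 1 (0.0775) and without siRNA library 1, 2 or 3 (0.277, 0.134 and 0.261). With the replicate number as a block the call was also lost (edgeR adjusted p = 0.103). Of the 11 tested WD40 and other clients 1 passed lower and 0 higher (0.899% and 0.0899% of all genes), with a median of 0.14 beside 0.02 over all genes, so the list is described by this 1 gene. Mlst8, a subunit of the mTOR complexes, had 19.8 ± 3.04 CPM in controls and 8.34 ± 1.88 after siRNA (log2 -1.25, edgeR adjusted p = 0.106; DESeq2 0.00231), with 22.5% of its exon bases shared with Bricd5. The tumour suppressor gene Vhl had a log2 fold change of 0.42 (edgeR adjusted p = 0.399).

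Prefoldin, the jawed complex that hands actin and tubulin to CCT, had 0 of 6 subunits past the threshold and 1 at an unadjusted p under 0.05, a share near the 14.7% of all genes, with a median of -0.02. Pfdn5 had 127, 60.0 and 73.3 CPM in controls and 49.3, 54.2 and 54.9 CPM in the siRNA libraries (log2 -0.72, edgeR adjusted p = 0.315; -0.34 without control 1), and 11.8% of its exon bases overlap Myg1. Vbp1 had a log2 fold change of -0.70 (edgeR adjusted p = 0.543; -1.09 without control 2) and Pfdn6 of 0.25 (0.606).

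The products of the prefoldin-like and R2TP genes assemble larger complexes such as snoRNPs and RNA polymerases. This list had the median furthest below 0 of the 10, at -0.54. In it 7 of 8 fold changes were below 0, beside 48.7% of all genes. Of genes with a mean of 50 CPM or more 66.4% were, but Uri1, Uxt, Pih1d1, Ruvbl2 and Wdr92 lie under that level. By edgeR 0 of these 8 were called, and 4 had an unadjusted p under 0.05, beside 14.7% of all genes. Ruvbl2, an ATPase of R2TP and of chromatin remodellers, had 32.5, 54.4 and 23.9 CPM in controls and 7.44, 12.8 and 7.92 CPM after siRNA, without overlap (log2 -1.98, edgeR adjusted p = 0.0564). DESeq2 and limma-voom called Ruvbl2 lower (adjusted p = 2.08e-05 and 0.0195), as did edgeR with 50 units in 3 libraries required or with counts divided by 4 (0.0378 and 0.0317). It shares 15.4% of its exon bases with Lhb and Gys1. Wdr92 had a log2 fold change of -1.07 (edgeR adjusted p = 0.196; DESeq2 0.0356) with 19.8% of its exon bases shared, and Pdrg1 of -0.58 (edgeR adjusted p = 0.217).

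Tubulin genes, the main clients, had 0 of 15 tested members past edgeR's threshold, 0 at an unadjusted p under 0.05 and a median of 0.34. Tuba1c had 5.48 ± 1.43 CPM in controls and 10.8 ± 5.52 after siRNA (log2 0.97, edgeR adjusted p = 0.349; 0.49 without siRNA library 2). Tubg1 had 47.8, 85.7 and 33.7 CPM in controls and 29.5, 40.1 and 38.8 CPM after siRNA. Its groups overlapped, and its log2 fold change of -0.63 (edgeR adjusted p = 0.470) was -0.17 without control 2. Tubg2 had 1.97, 5.26 and 0.685 CPM in controls and 4.84, 4.64 and 6.06 CPM after siRNA, which overlapped. The log2 fold change of Tubg2 was 0.97 (edgeR adjusted p = 0.553), 1.97 without control 2 and 0.52 without control 3. Of 5 tested genes of the actin list, which also holds actin-related genes, 0 passed. At an unadjusted p under 0.05 there was 1, the Arp2/3 subunit gene Actr2 (285 ± 28.5 and 206 ± 17.0 CPM, log2 -0.47, edgeR adjusted p = 0.304). The actin genes Actb and Actg1 overlapped between the groups. Actb had 87.9 ± 35.8 and 67.3 ± 31.9 CPM (log2 -0.38, edgeR adjusted p = 0.736). Actg1 had 33.9 ± 7.97 and 29.3 ± 0.616 CPM (log2 -0.21, edgeR adjusted p = 0.798). Actr3, the partner of Actr2, had a log2 fold change of 0.22 (0.709), and Acta1 was under 1 CPM in all libraries.

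Tubulin folding cofactors, which take over tubulin released by CCT, had 0 of 8 past edgeR's threshold, 1 at an unadjusted p under 0.05, a share near the 14.7% of all genes, and a median of 0.11. Tbcc had 31.4, 42.6 and 23.2 CPM in controls and 53.7, 49.0 and 70.8 CPM after siRNA, higher without overlap (log2 0.84, edgeR adjusted p = 0.229). Tbce had a log2 fold change of -0.63 (0.346), and Tbcel was at most 1.61 CPM (log2 2.33, edgeR adjusted p = 0.490). Among phosducin-like cofactors, 0 of 3 tested genes passed and 0 had an unadjusted p under 0.05 (Txndc9 log2 -0.28, Pdcl3 0.35 and Pdcl 0.02). Pdcl3 was at 0.01 without siRNA library 2.

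Relatives of the CCT genes did not share one direction. Cct6b, the testis-enriched relative of Cct6a, had 25.6, 10.2 and 16.5 CPM in controls and 6.41, 6.57 and 8.16 CPM after siRNA, lower without overlap (log2 -1.31, edgeR adjusted p = 0.152; DESeq2 0.0157). Cct8l1 had a log2 fold change of 0.57 (edgeR adjusted p = 0.512) and Bbs10, of the chaperonin-like proteins at the cilium, one of 1.82 (0.588) at under 2 CPM. Of these 5 paralogs 0 passed edgeR's test and 1 had an unadjusted p under 0.05, near the 14.7% of all genes. The mitochondrial chaperonin, a separate folding machine made of Hspd1 and its cap Hspe1, had both fold changes above 0. Hspe1 had 52.9, 40.3 and 37.5 CPM in controls and 71.3, 120 and 72.3 CPM after siRNA, higher without overlap, and shares 7.6% of its exon bases with Hspd1. Its log2 fold change was 1.01 (edgeR adjusted p = 0.137; DESeq2 0.0195), and Hspd1 had a log2 fold change of 0.23 (edgeR adjusted p = 0.672; 0.11 without siRNA library 2). The heat shock factors, which drive chaperone transcription, had log2 fold changes of -0.75 for Hsf1 (edgeR adjusted p = 0.488) and -0.21 for Hsf2 (0.864). Control 2 was the highest for Hsf1 at 10.3 CPM, against 5.65 and 4.14 in the other controls, and without it the value was -0.29.

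**Figure D5:**
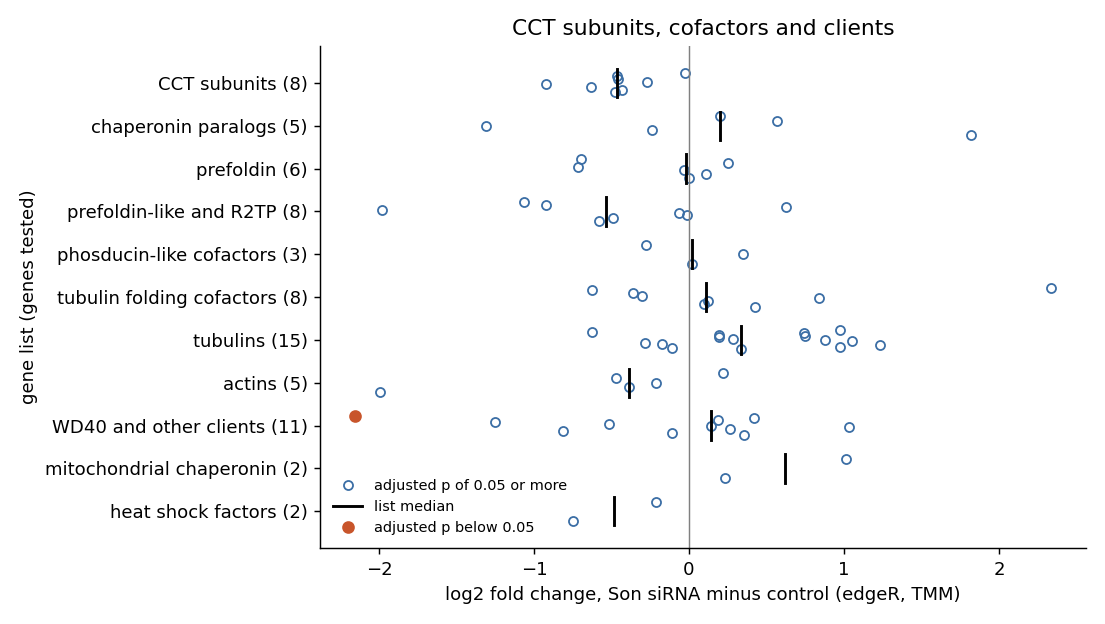
Log2 fold change, Son siRNA minus control, of each tested gene in the CCT subunit list and 10 lists of cofactors, relatives and clients; black ticks are list medians and the filled point marks an adjusted p below 0.05. The filled point is Wrap53 at -2.15, and the CCT subunits lie between -0.92 and -0.03.

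The genes closest to the average CCT profile over the 6 libraries were sought among 6071 other genes with a mean of 10 CPM or more. Likeness was the root mean square difference of log2 CPM after centring each gene on its mean, and the libraries share their scaling factors. The 5 closest were the TFIIH subunit gene Gtf2h3 (0.039), the magnesium transporter gene Nipa2 (0.058), Lrrc57 (0.071), Gm6457 (0.073) and the TFIID subunit gene Taf2 (0.076). Of these Nipa2 shares 18.6% of its exon bases with Cyfip1 and Lrrc57 6.20% with Haus2. Gtf2h3 had 41.9, 40.8 and 39.2 CPM in controls and 29.0, 32.3 and 26.4 CPM after siRNA. Lower values after siRNA follow from the choice of genes like the average, and edgeR called 0 of these 5 (adjusted p from 0.320 to 0.481). The single subunits stood further from their own average, from 0.10 for Cct8 to 0.23 for Tcp1 and 0.26 for Cct5, and 25 other genes were closer to the average than Cct8.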

How the data were processed

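The authors deposited 1 table per library with whole-number estimated counts per gene, not normalized, each row an Ensembl identifier and symbol. HISAT2 2.0.5, StringTie 1.3.3b and GRCm38 are named in the submitters' processing notes; per the labels' protocols cDNA was made with Smart-Seq2. Annotation, filters and counting step: not given in the sources used here; what number of reads a unit stands for is unknown. The values were whole, so no rounding was needed, and 0 rows lacked a gene name. By identifier 45137 of 46072 genes matched GENCODE vM21 (GRCm38), and 935 did not.

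All genes were fitted with edgeR 4.0.16 (R 4.3.3; filterByExpr, TMM, glmQLFit and glmQLFTest, no block, Benjamini-Hochberg). SEs are the log2 fold change divided by the root of F. TMM factors were 0.810 to 1.05 in controls and 1.02 to 1.16 after siRNA. Mitochondrial genes took 9.79% to 17.5% of counts. Spearman correlations between libraries were 0.876 to 0.919, so none was a copy. They were 0.889 to 0.891 among controls, 0.914 to 0.919 among siRNA libraries and 0.876 to 0.897 between the groups. Controls 2 and 3 were thus about as close to the siRNA libraries as to the other controls. An exact permutation test of 3 against 3 cannot go below p = 0.1 and was not used. On simulated counts for 16666 genes, the test recovered 81 of 100 at a 4-fold change and 100 of 100 at an 8-fold change, with 10 unchanged genes among 191 calls; smaller changes, like those of the subunits, were not simulated.

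Members and lists were chosen with earlier results of these data known. Named genes were the subunits, Son, up to 3 members per list by smallest p, overlapping, intronic and pseudogene entries, and the 5 closest profiles. Actb and Actg1 are given besides these, without other settings. Same-numbered libraries did not deviate together (correlations -0.274, -0.332 and 0.023 over 6079 genes). Alternatives used DESeq2 1.42.0 and limma 3.58.1, other scalings and filters, a replicate block and leaving out each library.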

Additional observations from a re-analysis of the deposited data

How the results depend on the processing

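The subunits kept their direction in most settings, and the calls depended on the tool. The count of subunits called lower was 0 with edgeR in every setting run, 1 with DESeq2 and 1 with limma-voom (6.25% and 1.86% of all genes). It was 0 to 3 with DESeq2 leaving out each library, an alternative chosen after seeing the data. The share of all genes called in those fits was not counted. The fit that gave 3, without control 2, had 4645 of 18975 genes at an unadjusted Wald test p under 0.05. With all libraries DESeq2 had 3220 of 17788. Subunits called higher numbered 0 in every setting. The median CCT log2 fold change was -0.46, moved to -0.18 with total-count scaling, and ran from -0.56 to -0.38 when a library was left out with edgeR. With DESeq2 it was -0.40 without control 1, -0.54 without control 2 and -0.57 without siRNA library 2. Subunits wholly below the controls numbered 6 with TMM and 2 with total counts, and wholly above 0 and 1. The log2 ratio of the summed level was -0.48, -0.20 with total counts and -0.57 to -0.43 leaving out a library. The sign of Tcp1 turned with total counts (0.27), with upper-quartile scaling (0.00042), with edgeR without control 3 (0.0073), siRNA library 1 (0.0028) or siRNA library 3 (0.0083; down to -0.0924 without siRNA library 2), and with DESeq2 without control 3 (0.0058); Cct6a turned with total counts (0.0022).

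Over the whole table edgeR called 160 genes lower and 16 higher. These became 35 and 7 with total counts, 91 and 9 without a filter, 245 and 43 with at least 50 units in 3 libraries, 850 and 373 with DESeq2, 330 and 43 with limma-voom, 279 and 51 with counts divided by 4, and 0 to 231 and 0 to 84 leaving out a library. With the replicate number as a block edgeR called 0 and 0 (1997 genes at an unadjusted p under 0.05). The block left 0 subunits called, with a CCT median of -0.45. With it Son (log2 -3.29, edgeR adjusted p = 0.0617) and Wrap53 (log2 -2.09, edgeR adjusted p = 0.103) lost their calls. Same-numbered libraries did not deviate together, and the labels do not say whether they were paired. The cause of this loss of calls was not tested. Partner and client genes called lower numbered 1, and 0 with total counts, 2 with the stricter filter and 5 with DESeq2. They numbered 2 with limma-voom, 2 with counts divided by 4, 0 with the block and 0 to 1 leaving out a library. The settings with 2 or more were also those with the most genes called lower over the whole table (245, 850, 330 and 279). DESeq2 called 6.25% of all genes lower and limma-voom 1.86%. Partner and client genes called higher numbered 0, and 1 with DESeq2, which called 373 higher over the whole table. Named genes whose sign turned were Txndc9 (0.0283), Hsf2 (0.11) and Usp16 (0.0571) with total counts, Hsf2 without control 3 (0.0066), Pdcl without control 1 (-0.10), control 2 (-0.08) or siRNA library 2 (-0.01), and Gm23245 without control 1 (-0.07) or 3 (-0.13; up to 1.25 without control 2). The cause of these moves was not tested.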
